A study of Mus musculus with 8 samples.

Results

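The phosphofructokinase and PFKFB isoforms were the 7 genes Pfkm, Pfkl, Pfkp, Pfkfb1, Pfkfb2, Pfkfb3 and Pfkfb4, taken from an array that names 10 non-control probes and 19 spots after them, out of 39429 probes. They were read in the left ventricle of 8 male C57Bl/6j mice, an inbred strain. The 4 normal salt mice ate chow with 0.4% sodium and the 4 low salt mice chow with 0.05% sodium, both from 8 weeks of age for 8 weeks, and all were killed at 16 weeks. Septum, free wall and apex were homogenised together, so the RNA is that of every cell type of the ventricle wall. Each of 4 two-colour Agilent arrays carried a pair of mice of the same diet, one labelled with Cy3 and one with Cy5, so diet differed only between arrays. The family was chosen by the measured diet differences of these same mice, above all that of Pfkfb1. The diet differences of its members are therefore given as a description: calls from the fit over all probes are stated with their share among all probes, and nothing is read from them. No label says whether mice of a diet were littermates or shared a cage. The arrays lay on a single slide, and place on the slide and diet cannot be told apart.

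Phosphofructokinase commits glucose to glycolysis by adding a phosphate to fructose 6-phosphate, and it is the main control point of the pathway. Its tetramers are built from muscle (Pfkm), liver (Pfkl) and platelet (Pfkp) subunits. The strongest allosteric activator of the enzyme is fructose 2,6-bisphosphate, which the PFKFB proteins both make and break down with separate kinase and phosphatase domains. Pfkfb1 is the isoform known from liver and skeletal muscle, Pfkfb2 the heart isoform that insulin and adrenergic signals act on by phosphorylation, Pfkfb3 the inducible isoform with strong kinase activity, and Pfkfb4 an isoform known from testis and from hypoxic cells.

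What each value reports is set by where its probe lies, so parts of the probes are shown here with mm9 coordinates from the array design. For the probe nearest the 3′ end of each gene but Pfkfb1, 30 of its 60 bases are given, 5′ to 3′, with capitals marking AATAAA, the hexamer of polyadenylation signals. The 3 probes that lie upstream of another probe of the same gene are given whole.
Pfkfb2, chr1:132586152-132586181, minus strand: tatactacagggcttttttcttgtggtata
Pfkfb3 3′ probe, chr2:11393457-11393486, minus strand: agttgcaagaacAATAAAaacctggttgag
Pfkfb3 upstream probe, chr2:11404189-11405602, minus strand: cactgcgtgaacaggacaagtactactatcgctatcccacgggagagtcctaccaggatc
Pfkfb4 3′ probe, chr9:108934682-108934711, plus strand: gtgtccagcattctttgcAATAAAtacttt
Pfkfb4 upstream probe, chr9:108910455-108910514, plus strand: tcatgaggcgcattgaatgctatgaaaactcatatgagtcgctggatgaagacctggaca
Pfkm, chr15:97962713-97962742, plus strand: acaggctgggtctctctagtgctacggcta
Pfkl, chr10:77450956-77450985, minus strand: ccgcaccttgagcatagacaagggtttctg
Pfkp 3′ probe, chr13:6579126-6579155, minus strand: tttttgccagtcAATAAAcacctttggttg
Pfkp upstream probe, chr13:6581718-6583872, minus strand: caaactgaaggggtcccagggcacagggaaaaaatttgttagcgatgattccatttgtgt

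The hexamer AATAAA stood in 3 of the 10 member probes, the 3′ probes of Pfkfb3, Pfkfb4 and Pfkp, and in 12.6% of all probes on the strand given; no other motif was searched. The upstream probes of Pfkfb3 and Pfkp span 1414 and 2155 bases of the genome with 60 bases of sequence, so the design aligns them in separate blocks. The Pfkfb3 probes lie 10677 bases apart, and the design lists 0 accessions in common for them. The Pfkfb4 probes lie 24138 bases apart and share an accession. RefSeq (GRCm38.p6) lists 4 transcription start windows for Pfkfb1 and 4 for Pfkm, and the single probe of each gene gives no value per start. No exon or untranslated region was assigned to a probe.

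Values are normalised log2 intensities, and a difference is the low salt mean minus the normal salt mean on that scale, so a difference of 1 is a doubling. A probe was kept for the fit over all probes where it stood well above background in at least 4 mice, which held for 8 of the 10 member probes and 23236 probes in all. Across probes, the correlation was 0.994 to 0.996 for mice sharing an array, 0.983 to 0.990 between arrays of a diet, and 0.979 to 0.990 between diets. The arrays were not even over their surface. The local trend at a spot, the median deviation of the spots around it, differed between diets by more than 0.2 at 9.58% of kept probes, and 174 of the 181 probes called higher on low salt lay there. Over all probes kept, 0.779% were called higher and 0.0344% lower (limma, Benjamini-Hochberg adjusted p under 0.05). With the scanner's own processed signal 38 probes were called higher and 7 lower, and with the local trend subtracted 43 and 14. With the mouse number as a replicate block they were 671 and 224. That block took the place of the array, so mice sharing an array counted as independent. With each array averaged to 1 value, 0 were called in either direction. All 8 ventricular cardiomyocyte markers were measured, and their mean level lay between 16.84 and 17.50 on normal salt and between 16.78 and 17.41 on low salt. These ranges take in mice of both dyes. The median difference of the markers was -0.12, with 2 higher and 6 lower on low salt.

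Among the 8 kept member probes 1 was called higher, the 3′ probe of Pfkfb4, and 0 lower, beside the shares above; 2 had an unadjusted limma p under 0.05, those of Pfkfb4 and Pfkfb1, as had 11.1% of all probes kept. Every low salt mouse lay below every normal salt mouse for Pfkfb1, against 4.94% of all probes kept, and above for the 3′ probes of Pfkfb3 and Pfkfb4, against 7.78%. The series design describes comparing mice of the same dye and averaging. Here each dye had to pass 1.5-fold on its own, without averaging. By that rule Pfkfb1 was lower in both dyes, as were 1.34% of 18250 genes, and Pfkfb4 higher, as were 1.97%. Because the family was chosen with this contrast known, nothing is read from these counts. With the replicate block Pfkfb1 was called too, in a fit that counts mice sharing an array as independent. With each array averaged to 1 value Pfkfb1 was not called.

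Pfkfb1 was the lowest of the family on low salt relative to normal salt. Its probe read 10.56, 10.92, 10.78 and 10.64 in normal salt mice 1 to 4 and 9.22, 9.91, 9.71 and 9.31 in low salt mice 1 to 4. The groups did not overlap, and 0.65 log2 units lay between the lowest normal salt mouse and the highest low salt mouse. The means were 10.73 ± 0.16 (SD, n = 4) and 9.54 ± 0.33, a difference of -1.19 ± 0.29 (SE), or 2.27-fold lower. With the background correction as first planned, before flagged local backgrounds were replaced, the difference was -0.54 and the groups still did not overlap. In tissue homogenate, fewer cells that carry a transcript and less transcript per cell cannot be told apart.

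The Pfkfb1 difference was nearly the same in either dye, -1.21 in the Cy3 mice and -1.16 in the Cy5 mice. The arrays of each diet also read alike, with means of 10.74 and 10.71 on normal salt and 9.57 and 9.51 on low salt. The spread among low salt mice lay within arrays instead, where mice 1 and 2 shared one array and mice 3 and 4 the other. The residual standard deviation of the probe, 0.27, was at the 85.0th percentile of all probes kept, whose median was 0.14. The raw spot stood 24.6 to 89.2 times over its local background in every mouse. Its surroundings were even, with a local trend of -0.01, and with that trend subtracted the difference was -1.18. Ordered from the lowest difference up, Pfkfb1 ranked 101 among the 23236 probes kept.

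Markers of tissues known for Pfkfb1 were read beside it. Among 6 hepatocyte markers Alb and Apoa1 were not well above background in enough mice to be kept, and the 4 kept had a median difference of 0.20. One of them, Serpina1a, which encodes an antitrypsin secreted by liver, reached 11.66 in low salt mouse 3 and 10.81 in low salt mouse 4, but 7.10 and 6.98 in mice 1 and 2 of that diet and 6.79 to 7.22 on normal salt. The mean level of these 4 markers lay between 7.04 and 7.30 on normal salt and between 7.31 and 8.37 on low salt. Serpina1a differed by 2.12, and Apoc3, Ttr and Cps1 by 0.19, 0.20 and -0.04. The upper low salt end thus carries the high Serpina1a readings. With the array that holds these high readings left out, the Pfkfb1 difference was -1.16, and the probe was then called, in a fit where low salt rests on a single array and array and diet cannot be told apart. Of 8 skeletal muscle markers the fast myosin genes Myh1, Myh2 and Myh4, with Mylpf and Actn3, were not kept, and the other 3 had a median of 0.14. The 4 atrial markers kept varied most, with mean levels of 11.55 to 14.23 on normal salt and 11.12 to 13.22 on low salt and a median difference of -1.52. The 6 adipocyte markers had 3 kept, with a median of 0.06, the 8 endothelial markers a median of -0.31, the 5 fibroblast markers one of -0.10 and the 4 blood cell markers on the array one of -0.10. None of these markers was called (limma over all probes), beside 0.773% of all genes called higher and 0.0384% lower. The part of the markers in the Pfkfb1 difference was not tested.

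**Figure D1:**
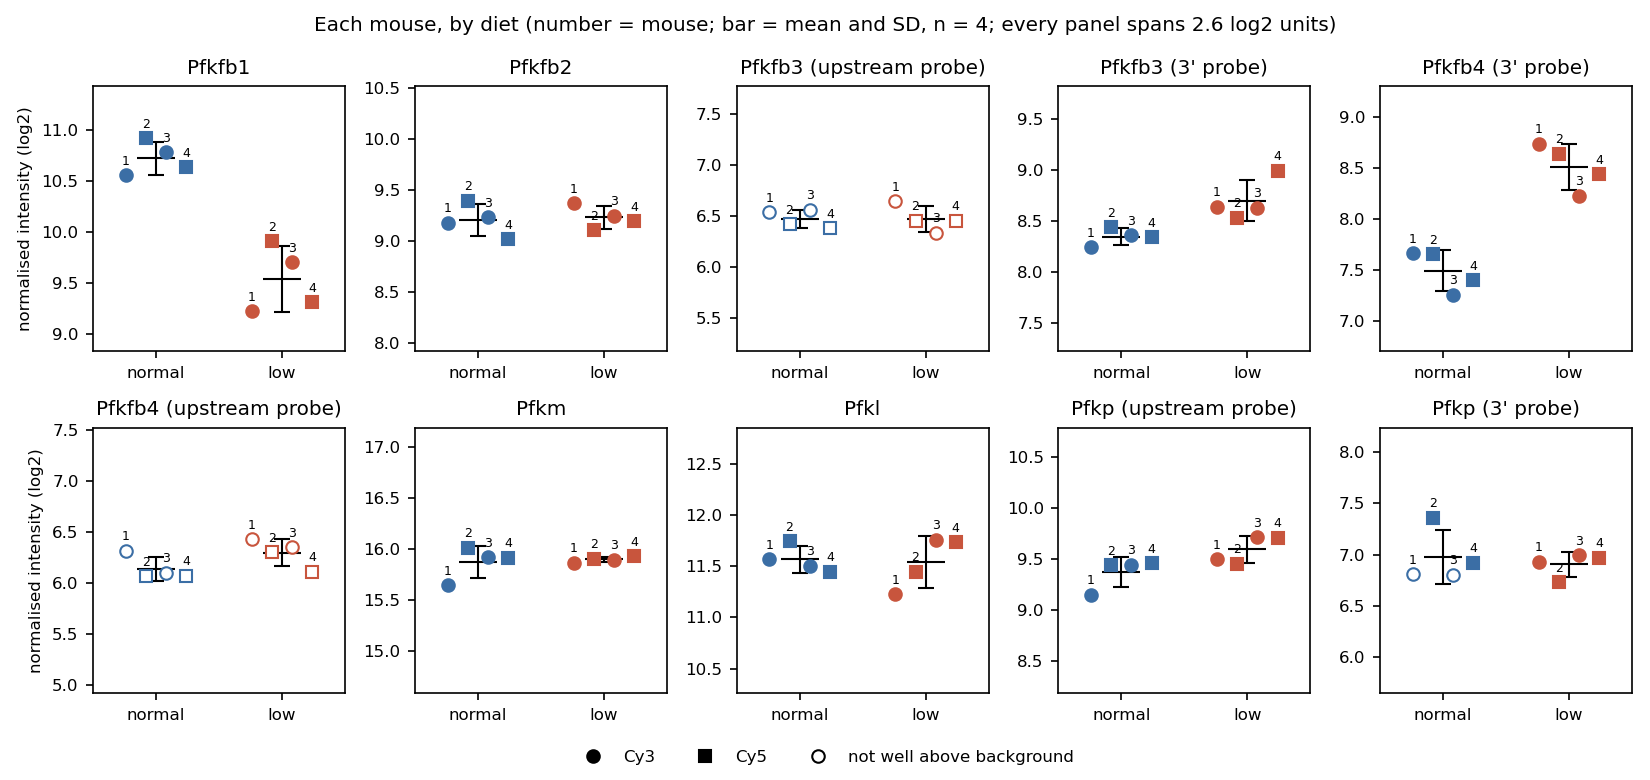
Normalised log2 intensity of every member probe in each mouse, on normal and low salt, with Cy3 mice as circles and Cy5 mice as squares, open where the probe was not well above background. Bars give the mean and SD of 4 mice. Low salt mice stood below normal salt mice for Pfkfb1 and above them for the 3′ probes of Pfkfb3 and Pfkfb4, and the groups overlapped in the other panels.

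Pfkfb2, the heart isoform, read nearly the same on both diets. Its values were 9.18, 9.40, 9.23 and 9.02 in normal salt mice 1 to 4 and 9.37, 9.11, 9.25 and 9.20 in low salt mice 1 to 4. The range of the low salt mice fell inside that of the normal salt mice. The means were 9.21 ± 0.16 and 9.23 ± 0.11 (SD, n = 4), and the difference of 0.02 ± 0.15 (SE) was smaller than the spread among mice. It was 0.10 in the Cy3 mice and -0.06 in the Cy5 mice, so even its sign was not settled.

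Pfkfb3, the inducible isoform, was measured by its 3′ probe only. That probe read 8.24, 8.44, 8.36 and 8.34 in normal salt mice 1 to 4 and 8.64, 8.53, 8.63 and 8.99 in low salt mice 1 to 4. The groups did not overlap, but only 0.09 log2 units separated them, and low salt mouse 4 stood apart from the other three on its diet. The difference was 0.35 ± 0.16 (SE), 0.33 by Cy3 and 0.37 by Cy5, and 0.29 with the local trend subtracted. With the background correction as first planned it was 0.08. The upstream probe was not well above background in any mouse, at 6.47 ± 0.09 and 6.47 ± 0.13, and gives no fold.

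Pfkfb4 was higher on low salt by its 3′ probe. It read 7.66, 7.65, 7.25 and 7.40 in normal salt mice 1 to 4 and 8.73, 8.63, 8.22 and 8.44 in low salt mice 1 to 4. The groups stood 0.56 apart at their nearest, and on each diet the array holding mice 1 and 2 read higher than the second array. The means were 7.49 ± 0.20 and 8.51 ± 0.23 (SD, n = 4), a difference of 1.02 ± 0.17 (SE), or 2.02-fold higher, with 1.02 by Cy3 and 1.01 by Cy5.

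This Pfkfb4 spot lay at the left edge of the arrays, at row 259 and column 7, where the surface was uneven. The local trend there was 0.40 higher on low salt arrays, and with it subtracted the difference was 0.61 and the probe was no longer called. Among the 108 kept spots around it the median difference was 0.37, with quartiles of 0.19 and 0.61, 99 were higher on low salt, and 5 differed by as much as Pfkfb4 or more. It was the only member spot of 19 with a local trend past 0.2. The call also ended in 7 of the 8 fits that left out a mouse, all but that without low salt mouse 3, with the difference between 0.95 and 1.09. With the background correction as first planned it was 0.17, with no call. The upstream Pfkfb4 probe, in an even part, was not well above background in any mouse, at 6.14 ± 0.12 and 6.30 ± 0.13, so it gives no fold to set beside the 3′ probe.

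Pfkm, the muscle subunit, was printed on 10 spots, so the variation among spots of this bright probe can be seen. Error shared by all spots of an array cannot be seen this way. Averaged over its spots the probe read 15.65, 16.01, 15.92 and 15.92 in normal salt mice 1 to 4 and 15.87, 15.91, 15.90 and 15.93 in low salt mice 1 to 4. Low salt mice lay within the range of normal salt mice, of which mouse 1 was the lowest in 9 of the 10 spots. The means were 15.87 ± 0.16 and 15.90 ± 0.02 (SD, n = 4), with a difference of 0.03 ± 0.13 (SE). The raw spots stood 1882 to 3026 times over background and none was saturated.

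Spots of this probe differed more from one another than diets did. Within a mouse the SD over spots was 0.20 to 0.34, and spot means ranged from 15.48 to 16.17. The diet difference was steadier, since a spot is compared with itself on other arrays. It lay between -0.14 and 0.15 over the 10 spots, with 7 higher and 3 lower on low salt and an SD of 0.08. The scanner software marked 2 spot values as outliers, 1 in normal salt mouse 2 and 1 in low salt mouse 1, and they were left out. Over the 8 spots measured in all mice the means were 15.93 ± 0.12 and 15.98 ± 0.03, with a difference of 0.04. Local trends at these spots were between -0.15 and 0.15.

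**Figure D2:**
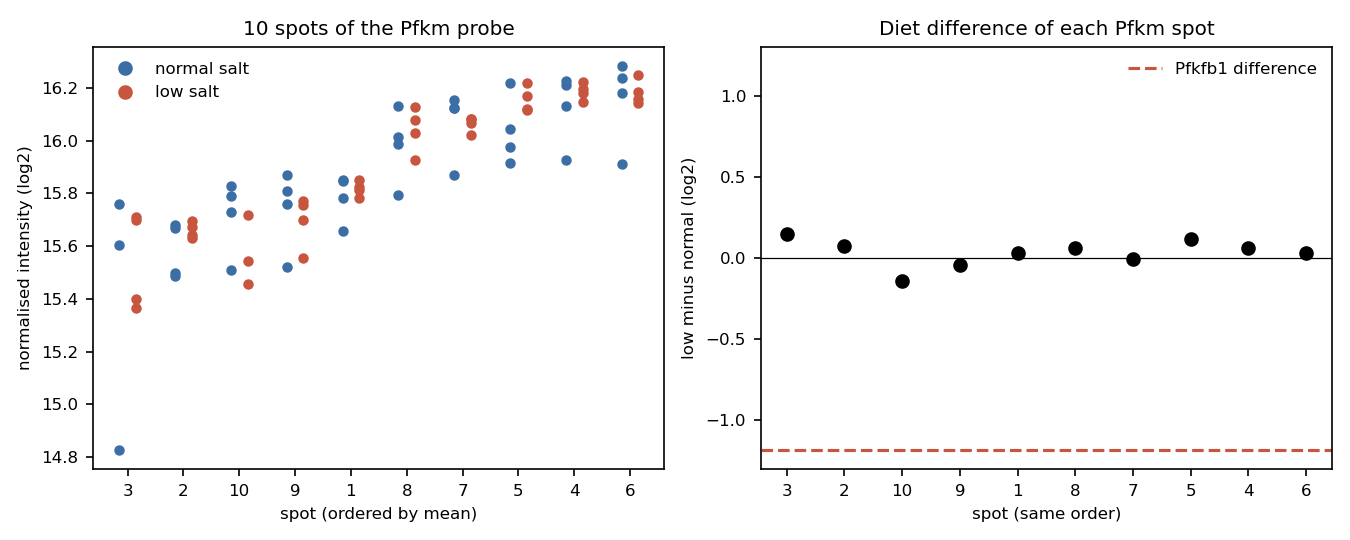
The 10 Pfkm spots, with the normalised log2 intensity of each mouse on the left and the low minus normal salt difference of each spot on the right, spots ordered by mean. Spot differences lay between -0.14 and 0.15, and the dashed line marks the Pfkfb1 difference of -1.19 for scale. The spread of the Pfkm spots does not give the error of the dimmer Pfkfb1 probe.

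Pfkl, the liver subunit, differed more between arrays than between diets. It read 11.57, 11.74, 11.51 and 11.45 in normal salt mice 1 to 4 and 11.23, 11.45, 11.76 and 11.74 in low salt mice 1 to 4. The low salt range enclosed the normal salt range, with array means of 11.34 for mice 1 and 2 and 11.75 for mice 3 and 4. The difference was -0.02 ± 0.16 (SE). It was 0.18 with the first low salt array left out and -0.23 with the second left out, so its sign depended on the array.

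Pfkp, the platelet subunit, had both probes kept. The upstream probe read 9.15, 9.44, 9.44 and 9.46 in normal salt mice 1 to 4 and 9.50, 9.46, 9.71 and 9.71 in low salt mice 1 to 4. Normal salt mouse 1 was low, and the highest normal salt mouse and the lowest low salt mouse both read 9.46, so the groups met. The difference was 0.22 ± 0.14 (SE), 0.31 by Cy3 and 0.13 by Cy5. It was 0.34 with the first low salt array left out, 0.10 with the second left out and 0.07 with the background correction as first planned. The 3′ probe was dim: it passed the background test in 2 mice on normal salt and in 4 on low salt, and its difference was -0.07 ± 0.21. By dye the 3′ probe read 0.16 in the Cy3 mice and -0.29 in the Cy5 mice, so its sign was not settled. With the local trend of -0.19 subtracted it read 0.13, smaller than the SE of 0.21.

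**Figure D3:**
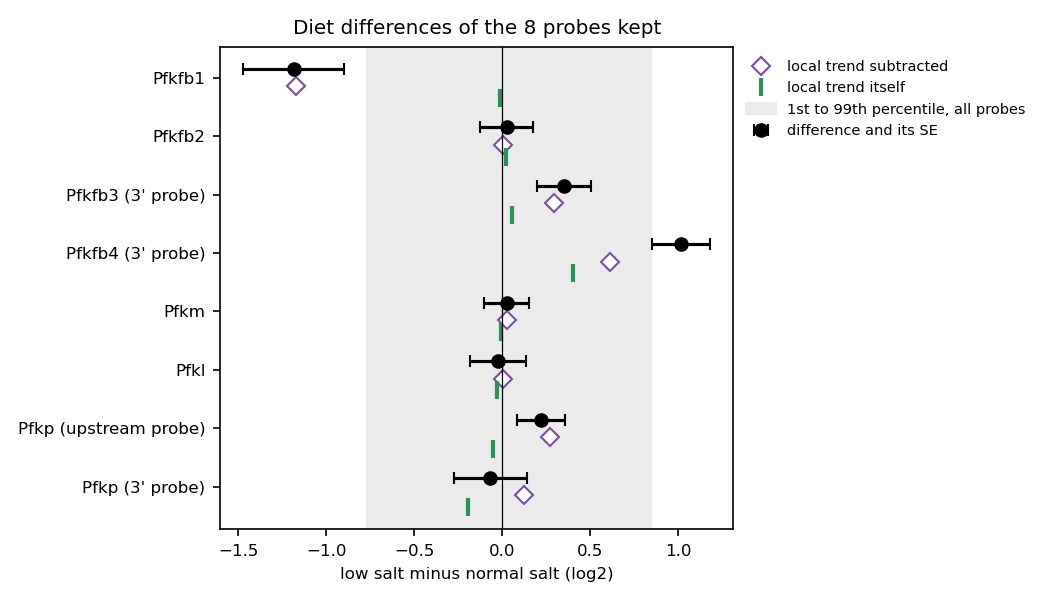
Low minus normal salt log2 differences of the 8 member probes kept, as circles with the SE of the fit, with the value after subtraction of the local trend as diamonds and the trend itself as ticks. The grey band runs from the 1st to the 99th percentile of all probes kept, -0.77 to 0.84. Pfkfb1 at -1.19 and the Pfkfb4 3′ probe at 1.02 lay outside it, without subtraction of the trend.

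Of the other enzymes of the glycolytic chain, none of 15 listed genes, all measured, was called in either direction by any of their 29 kept probes (limma). By each gene's brightest probe 0 had an unadjusted p under 0.05, against 11.4% of all genes, and 4 were higher and 11 lower on low salt, with a median difference of -0.04 and a range of -0.17 to 0.08, beside a median of 0.01 over all 18250 genes, of which 0.773% were called higher and 0.0384% lower. Over all 29 probes 14 were higher and 15 lower, from -0.29 to 0.47. Of these probes 4 had an unadjusted limma p under 0.05, beside 11.1% of all probes kept. All 4 were higher, 2 of Hk1, 1 of Gpi1 and 1 of Gapdh. The Gpi1 and Gapdh probes among them lay at spots with local trends of 0.53 and 0.51. The median by brightest probe turned to 0.03 with the scanner's signal and 0.02 in the Cy3 mice. Ldha, the lactate dehydrogenase subunit of muscle, had the smallest p, at -0.17 ± 0.12 (SE; limma adjusted p = 0.609), while its other probes read 0.04 and 0.01. Gapdh, which oxidises glyceraldehyde phosphate, read -0.11 ± 0.11 (adjusted p = 0.719), while its 6 other probes read -0.03 to 0.30. Tpi1, which interconverts the triose phosphates, read -0.07 ± 0.09 (adjusted p = 0.777).

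The phosphatases that oppose these enzymes were sparsely measured. Fbp2, the muscle fructose bisphosphatase that reverses the phosphofructokinase step, read 10.38 ± 0.17 on normal and 10.11 ± 0.28 on low salt, a difference of -0.27 ± 0.18 (SE; limma adjusted p = 0.588). Tigar, which degrades fructose 2,6-bisphosphate, read 0.07 ± 0.28 (adjusted p = 0.940), and its other probe -0.10. Fbp1, the liver form, was not kept.

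Kinases and phosphatase subunits that act on PFKFB proteins, or regulate those that do, included AMP-activated kinase, protein kinase A, Akt and protein phosphatase genes. None of 16 was called, beside 0.773% of all genes called higher and 0.0384% lower, and 1 had an unadjusted limma p under 0.05, beside 11.4%. Over all 24 kept probes 2 had, 1 of Pdpk1 and 1 of Prkar1a, beside 11.1% of all probes kept. That Prkar1a probe read 0.47, while its brightest probe read 0.23. By brightest probe 11 genes were higher and 5 lower, with a median of 0.15 beside 0.01 over all genes. That median was 0.07 both with the background correction as first planned and with the array of normal salt mice 1 and 2 left out. Pdpk1, the kinase that activates Akt, read 0.34 ± 0.10 (SE; adjusted p = 0.243) at a spot with a local trend of 0.23, while its other probes read 0.04 and -0.20. Prkaca, the catalytic subunit of protein kinase A, read 9.02 ± 0.07 on normal and 9.58 ± 0.49 on low salt (0.56 ± 0.26; adjusted p = 0.476), with low salt mice 3 and 4 at 10.22 and 9.70 and mice 1 and 2 at 9.18 and 9.22. Akt1 read 0.31 ± 0.15 (adjusted p = 0.499) over 6 mice, since its spot was marked as an outlier in normal salt mice 1 and 2, and the local trend there was 0.44. The median of this list was 0.09 with the local trend subtracted.

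Hypoxia-inducible factor acts on the promoters of Pfkfb3 and Pfkfb4, and its genes and targets were listed for that reason. Of 13 genes 12 were measured, all but Car9. None was called, beside 0.773% of all genes called higher and 0.0384% lower. An unadjusted limma p under 0.05 was found for 3, beside the 11.4% of all genes. By brightest probe 5 were higher and 7 lower with a median of -0.03, which ran from -0.08 to 0.04 over the alternatives. Hif1a, the regulated subunit, read 8.63 to 9.09 on normal and 9.23 to 9.48 on low salt, a difference of 0.45 ± 0.13 (SE; adjusted p = 0.244). Ankrd37, a target gene, went the other way, at -0.52 ± 0.13 (adjusted p = 0.176) with all low salt mice below all normal salt mice. Arnt, the partner subunit, read -0.67 ± 0.29 (adjusted p = 0.448), with low salt mice 1 and 2 at 9.37 and 9.40. Low salt mice 3 and 4 read 10.37 and 10.54, and the second Arnt probe read -0.02. Over all 19 kept probes of this list 5 had an unadjusted limma p under 0.05, beside 11.1% of all probes kept. Apart from Hif1a, Ankrd37 and Arnt these were a Vegfa probe at -0.29 and a Bnip3 probe at 0.33.

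Sugar side branches hold glycogen, pentose phosphate, hexosamine, polyol and fructose genes. None of 10 was called, beside 0.773% of all genes called higher and 0.0384% lower. By brightest probe 0 had an unadjusted limma p under 0.05, beside 11.4% of all genes. Over all 13 kept probes 1 had, a Khk probe, beside 11.1% of all probes kept. The median was 0.08, beside 0.01 over all genes, with 6 higher and 4 lower. Pygm, the muscle glycogen phosphorylase, read 0.21 ± 0.11 (SE; adjusted p = 0.502), Akr1b3, aldose reductase, 0.16 ± 0.10 (adjusted p = 0.588) and Khk, ketohexokinase, -0.15 ± 0.12 (adjusted p = 0.646). The Khk probe lay at a local trend of -0.18 and read 0.03 with it subtracted, and a second Khk probe read 0.36 (adjusted p = 0.414) at a local trend of 0.29.

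**Figure D4:**
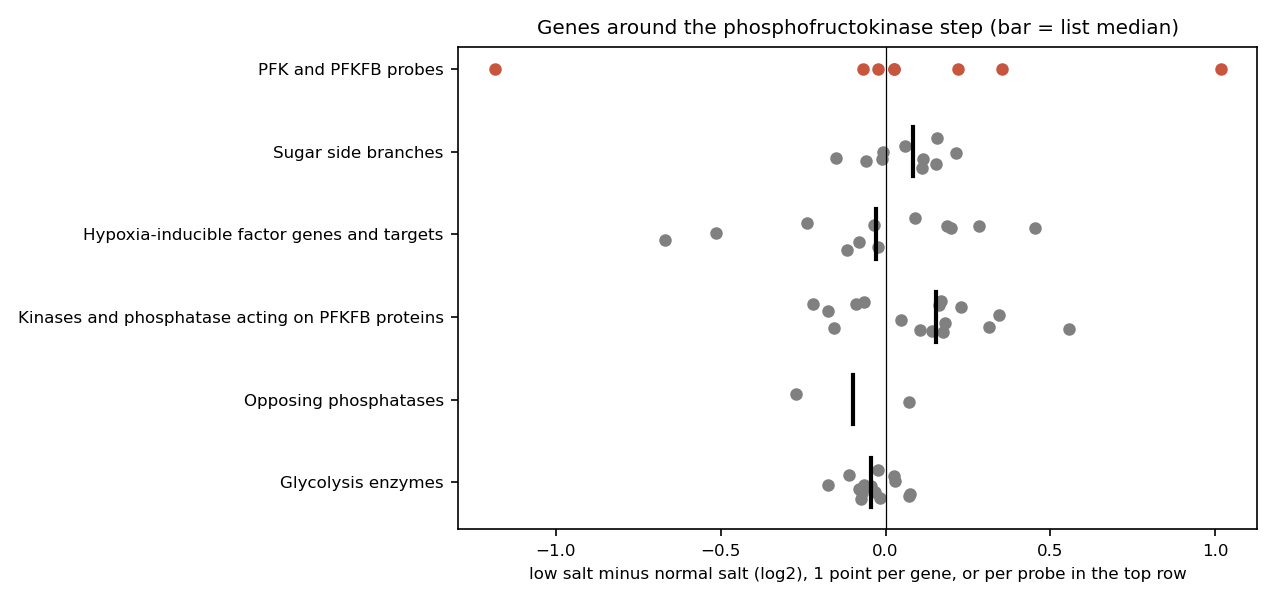
Low minus normal salt log2 differences of the genes in 5 lists, with a bar at each list's median, and of the 8 member probes in the top row. The 15 glycolytic enzymes lay between -0.17 and 0.08 by their brightest probe, and between -0.29 and 0.47 over all 29 kept probes. Member probes ran from -1.19 to 1.02, in a family chosen by these same differences. The upper end is the Pfkfb4 spot, at 0.61 with the local trend subtracted.

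Genes whose values followed Pfkfb1 most closely over the 8 mice were Zc3h18 (Pearson r of 0.98), Timm44 (0.98), Rbm6 (0.98), Cpsf7 (0.97) and Prpf39 (0.97), with differences of -0.20, -0.30, -0.32, -0.43 and -0.30. These are descriptions over 8 points that share 4 arrays, and 135 of 18039 genes with a value in every mouse had an r of at least 0.9. Pfkfb1 was chosen by its diet difference, so this r partly ranks genes by the same contrast. After removal of diet and dye means the closest were Cep83 (0.99), Eif1 (0.99), Samd12 (0.98), Rundc1 (0.97) and Acadvl (0.97), and 70 genes had an r of at least 0.9. That removal leaves fewer independent values than mice. No gene was in both sets of 5. Within the family, the deviations of the other kept probes had an r with those of Pfkfb1 between -0.54, for Pfkfb3, and 0.29, for Pfkm.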

How the data were processed

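Each deposited scanner table gives, per the file headers, a spot's intensity and its local background in both channels (Agilent Feature Extraction 11.5.1.1, mm9 design). The processed intensity beside it is background-subtracted, detrended and dye-normalised, per the file headers. Files of both mice of an array are identical copies, and each mouse was read in its own dye. The deposited series value table was left out because its rows could not be named.

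Mean signal was corrected with normexp (offset 50), then loess within and Aquantile between arrays, in limma 3.58.1 (R 4.3.3, statmod 1.5.0). This departs from the analysis plan in one step. As planned, with every local background as deposited, 12 to 34 spots per channel had a flagged background above their own signal, and the fitted SD of the background was 144.6 to 4951. With flagged backgrounds replaced by the channel median and flagged spots out of the fit it was 2.05 to 7.42. Both fits converged in all channels, and the planned one is kept as an alternative.

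The Pfkfb1 probe sequence is not reported here. Control and flagged spots were left out and spots of a probe averaged. The linear model held diet and dye, with array as a random block (duplicateCorrelation, 0.55), eBayes and Benjamini-Hochberg adjustment of two-sided p-values from 23236 probes. It was tested on simulated data with Gaussian errors, an array correlation of 0.55 for every probe and no local trend. That test therefore does not cover uneven array surfaces. The local trend was the median deviation within 7 rows and columns to each side, with at least 20 spots. A gene was read from its brightest kept probe. RefSeq named 27508 probes by accession, 3544 by gene name and 404 by synonym, and 7973 kept the file's name.

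Same-numbered mice deviated together (r of 0.14 to 0.31 over probes in the 4 pairs), which is where the replicate block comes from. With dye means removed r was 0.21 for numbers 1 and 3 and 0.11 for numbers 2 and 4. Mice 1 and 3 of a diet share a dye, as do mice 2 and 4, so these values are equal by construction. The number may still stand for array position. The number of arrays limits the precision. Members and lists were chosen with earlier results of these data known. All members were named, with up to 3 genes of each list by smallest p and the 5 most like Pfkfb1. Other probes of these genes, further list genes, Serpina1a and the other markers named were chosen after their values were seen. Alternatives changed the background correction, normalisation, filter, design, samples and local trend.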

Additional observations from a re-analysis of the deposited data

Results flagged for a closer look

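Normal salt mouse 1 stood apart from the other normal salt mice for the upstream Pfkp probe, at 9.15 against 9.44 to 9.46, a gap that is 0.94 of the group's whole range. It was 1 of 16 groups of 4 mice examined over the 8 member probes, of which chance marks about 1 in 20. Without that mouse the Pfkp difference was 0.15 in place of 0.22.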

How the results depend on the processing

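Pfkfb1, the 3′ probes of Pfkfb3 and Pfkfb4 and the upstream probe of Pfkp kept the sign of their difference in all 26 alternatives fitted over all probes, Pfkfb2 in 19, Pfkm in 22, Pfkl in 20 and the dim Pfkp probe in 17 of 24. Alternatives that changed only the filter or the design could not move a member's difference. Those that left out a mouse or an array reuse the same mice, whose contrast chose the family. The sign counts are a description. Pfkfb1 ranged from -1.35 to -1.03 without 1 mouse and from -1.31 to -0.54 under other settings. The smallest sizes, -0.54 for Pfkfb1 and 0.17 for Pfkfb4, came with the background correction as first planned. Over all probes the SD of the differences was 0.12 with that correction, against 0.28 as reported. Replacing flagged backgrounds was enough to move Pfkfb1 to -1.18, and taking flagged spots out of the fit alone left it at -0.56. Pfkfb4 was called in 10 of 26 alternatives and Pfkfb1 in 2, the replicate block and the fit lacking the second low salt array. Replacing flagged backgrounds alone, taking flagged spots out of the fit alone and averaging Pfkm over complete spots were chosen after seeing the data.

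Over all probes (181 higher and 8 lower), limma called 0 with no between-array normalization (740 higher and 236 lower at an unadjusted p under 0.05), each array averaged (1148 and 843), Cy3 mice alone (1184 and 1149) and Cy5 mice alone (1039 and 564). The scanner's signal gave 38 higher, the local trend subtracted 43 higher and 14 lower, and the replicate block 671 and 224. The planned background correction gave 13 lower. Leaving out the array of normal salt mice 1 and 2 gave 272 higher and 76 lower, and that of normal salt mice 3 and 4 gave 71 lower. Leaving out the first low salt array gave 94 higher and 13 lower, and the second 571 and 821. Without 1 mouse 68 to 124 were higher and 1 to 28 lower. Genes past 1.5-fold in both dyes (359 higher and 245 lower) numbered 82 and 76 with the planned correction, 132 higher with the trend subtracted, 480 lower with the scanner's signal, 680 lower lacking the second low salt array, and 302 to 373 higher and 147 to 307 lower without 1 mouse. Apart from the background correction, the cause of these shifts was not tested. Signal over background limits the upstream probes of Pfkfb3 and Pfkfb4.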
